A study of Mus musculus with 8 samples.

Results

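The TGF-beta ligands, their receptors and the latent TGF-beta binding proteins were followed as 10 genes, Tgfb1 to Tgfb3, Tgfbr1 to Tgfbr3 and Ltbp1 to Ltbp4, in tongue buds of mouse embryos at embryonic day 13.5. Members were all probe sets whose platform annotation names 1 of these genes and no other, which gave 24 of 34945 such probe sets, or 10 of 18193 genes. The 4 control embryos were Alk5 fl/fl, and the 4 mutant embryos were Alk5 fl/fl with Wnt1-Cre, a transgene that expresses Cre recombinase in neural crest cells. Alk5 is another name of Tgfbr1, so both groups carry the floxed allele of a member, and the mutants should lose it in neural crest derivatives but not in muscle, endothelium or epithelium. All samples were of the C57BL/6J strain and embryo sex was not determined, per the labels. RNA of the whole bud was hybridised to 1-colour Affymetrix arrays, 1 per sample. No group carried Wnt1-Cre without the floxed allele, so the transgene and the loss of the receptor cannot be told apart as sources of a difference.

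TGF-beta ligands are secreted as a latent complex, in which the propeptide stays bound to the mature dimer and is linked to an Ltbp that anchors it in the extracellular matrix. Once released, the ligand binds the type II receptor Tgfbr2, which recruits and phosphorylates the type I receptor Tgfbr1, and Smad2 and Smad3 carry the signal to the nucleus. The co-receptor Tgfbr3, also called betaglycan, presents ligand, above all Tgfb2, to Tgfbr2. In the tongue bud, mesenchyme of neural crest origin surrounds the myogenic precursors, and the design text gives the study's question as how loss of the receptor in the crest cells affects their interaction with those precursors.

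In the mutant buds Tgfb3, Tgfbr2 and Ltbp3 fell and Tgfbr1 and Tgfbr3 rose, each by 1.28- to 1.77-fold on the probe sets called. The largest fold, 1.77, was on a Tgfbr1 set that read below the array median on some arrays. No probe set of Tgfb1, Tgfb2, Ltbp1, Ltbp2 or Ltbp4 passed the test. A probe set was called when the limma test adjusted over all 34945 probe sets gave p under 0.05. Of the 24 member probe sets, 4 were called higher and 4 lower, or 16.7% in each direction. Of all probe sets 2.69% were called higher, 3.25% lower and 5.94% in either direction. Of the 4 higher sets 3 were of Tgfbr1, and of the 4 lower sets 2 were of Ltbp3. By the brightest set of each of the 10 genes 2 were higher and 3 lower, where 3.06% of 18193 genes were higher and 4.46% lower. All 4 mutant values lay beyond all 4 control values in 8 member probe sets, 3 higher and 5 lower, and such separation was seen in 14.7% of all probe sets (7.82% higher and 6.89% lower). By role, 1 of 7 ligand probe sets was called, lower; of 8 receptor probe sets 4 were higher and 1 lower; and 2 of 9 Ltbp probe sets were lower. The median log2 change was −0.049 over the members and −0.0023 over all probe sets. In whole-bud RNA, fewer cells of a type and less RNA per cell cannot be told apart. Without controls 1 and 3 together, a pair singled out in earlier results of these data, 2 member probe sets were higher and 1 lower, and without control 2 the number lower was 2.

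**Figure D1:**
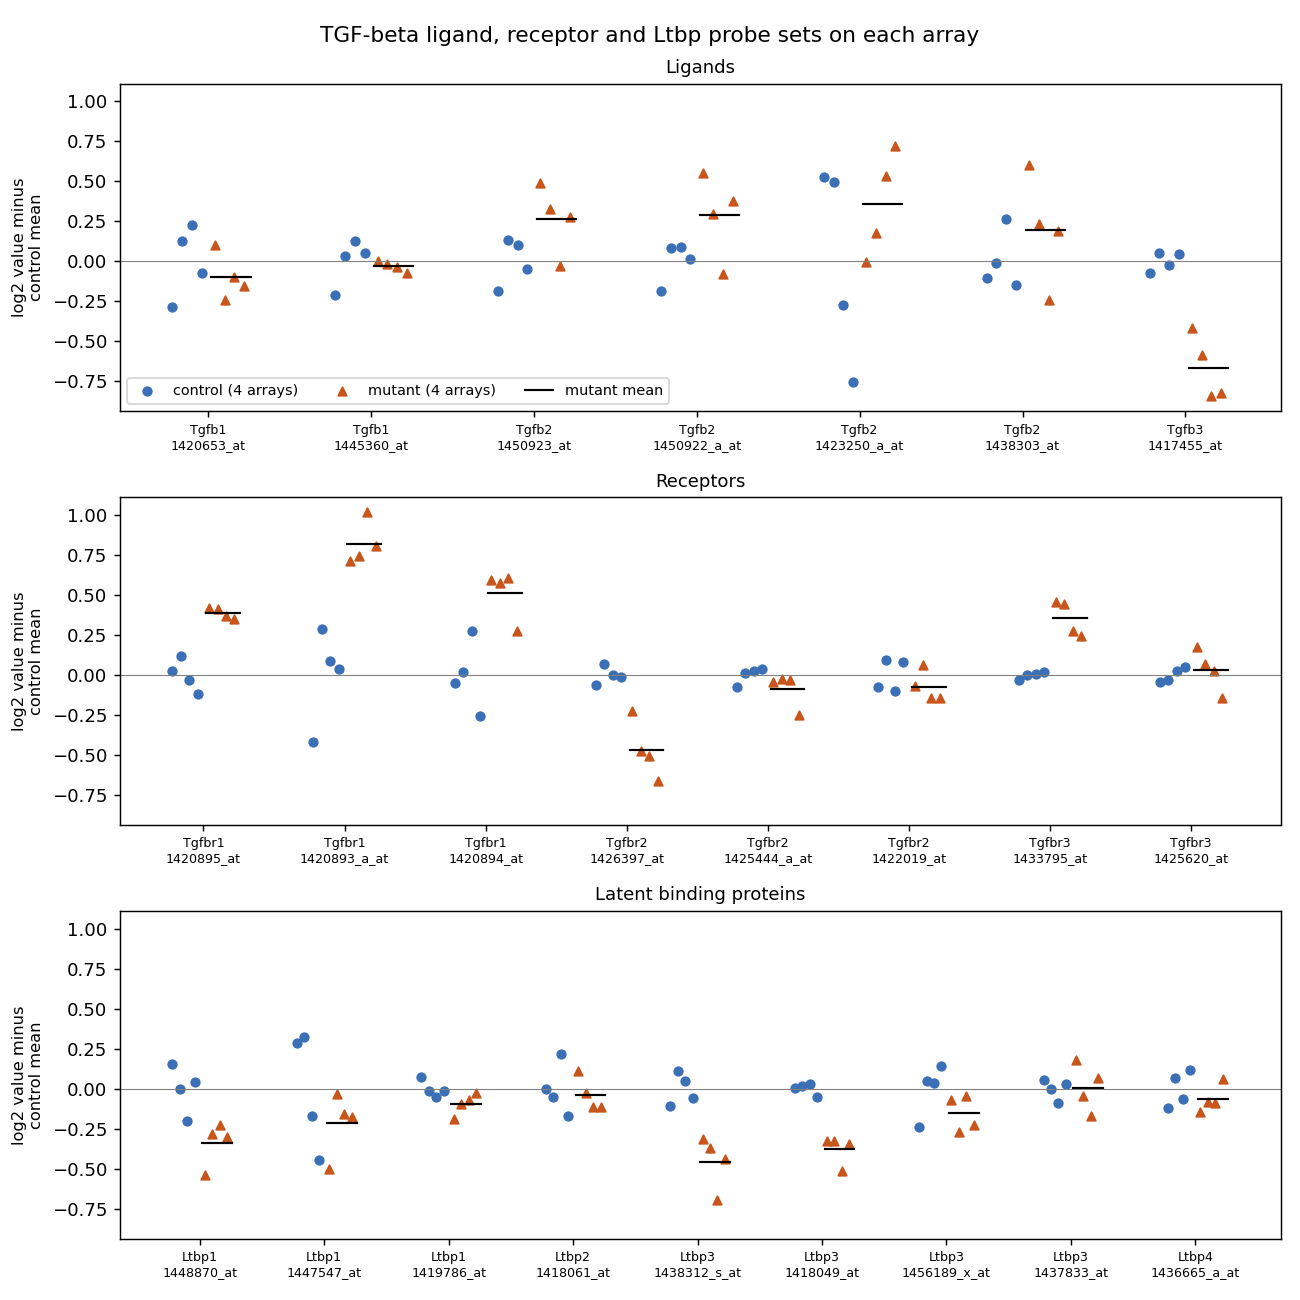
Each of the 24 probe sets on each array, as the log2 value minus the mean of the 4 controls (circles, controls; triangles, mutants; lines, mutant means), with ligands, receptors and latent binding proteins in 3 panels. The mutant points of Tgfb3, of Tgfbr2 1426397_at and of 2 Ltbp3 probe sets lie below all control points. So do those of Ltbp1 1448870_at, which was not called. The mutant points of Tgfbr1 1420895_at and 1420893_a_at and of Tgfbr3 1433795_at lie above all control points.

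The arrays were alike in scale, with medians between 5.96 and 6.01 and Pearson correlations across probe sets of 0.992 to 0.997 for pairs of controls, 0.995 to 0.998 for pairs of mutants and 0.990 to 0.996 for a control with a mutant. Within the groups the samples differed along 1 main component, which held 50.3% of the within-group variance and put controls 1 and 2 with mutants 3 and 4 on one side and the other 4 arrays on the other. No label gives a batch, and the origin of this component was not tested. As it holds 2 arrays of each group on each side, changes are also given within each side, for 2 mutants against 2 controls and with no test.

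Tgfb3, the ligand best known in craniofacial development for its part in palate fusion, fell. Its only probe set, 1417455_at, read 8.81, 8.93, 8.85 and 8.93 across control arrays 1 to 4, and 8.46, 8.29, 8.04 and 8.06 across mutant arrays 1 to 4. The groups did not overlap, and mutants 3 and 4 were the lowest. Means were 8.88 ± 0.059 and 8.21 ± 0.20 (SD, n = 4 each), which is a log2 change of −0.67 (SE 0.096, limma adjusted p = 0.00493) or 1.59-fold lower. Only 1.63% of all probe sets changed by more in either direction. The change was −0.82 on the side of the within-group component with controls 1 and 2 and −0.51 on the other, and it kept its call in all 20 alternative analyses (−0.75 to −0.61).

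Tgfb2, a ligand of embryonic mesenchyme, had 4 probe sets, all with a mutant mean above the control mean and none called. The brightest, 1450923_at, read 10.55, 10.87, 10.84 and 10.69 across control arrays 1 to 4, and 11.22, 11.07, 10.71 and 11.01 across mutant arrays 1 to 4. Mutant 3 lay among the controls and the other 3 mutants above them. The log2 change was 0.27 (SE 0.11, 95% confidence interval 0.0075 to 0.52, limma adjusted p = 0.241). For 1450922_a_at the difference was 0.29, for 1438303_at 0.20 and for 1423250_a_at 0.36, with adjusted p of 0.256 to 0.575 in the same limma fit.

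The Tgfb2 probe set 1423250_a_at did not vary together with the other 3 between samples. On 1423250_a_at controls 1 to 4 read 10.65, 10.62, 9.85 and 9.37 and mutants 1 to 4 read 10.12, 10.30, 10.66 and 10.85, the largest spread of any member among controls (SD 0.62). It was high on controls 1 and 2 and mutants 3 and 4, which share a side of the within-group component, and within groups these arrays exceeded the others by 0.78. On the other 3 probe sets these 4 arrays were lower on average, though not singly, with group-centred differences of −0.17 (1450923_at), −0.19 (1450922_a_at) and −0.28 (1438303_at). Of the 4 sets, 1423250_a_at, 1450922_a_at and 1450923_at carry the same accession in the annotation. Which one follows the Tgfb2 transcript was not tested.

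**Figure D2:**
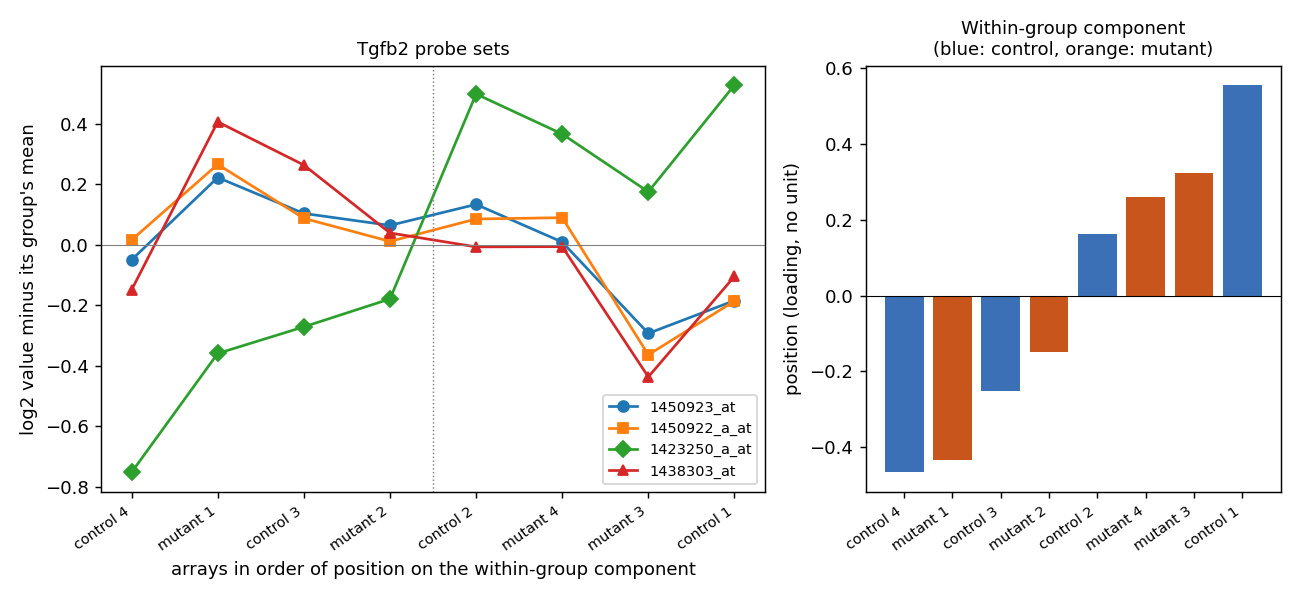
Left, the 4 Tgfb2 probe sets as the log2 value minus the mean of the array's own group, with the 8 arrays in order of their position on the within-group component; right, that position for each array (blue, controls; orange, mutants). Probe set 1423250_a_at runs from low on control 4 to high on control 1, and the other 3 are lower on mutant 3 and control 1 than on mutant 1.

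Tgfb1, the ligand produced widely by blood, immune and endothelial cells, was dim. Probe set 1420653_at read 5.10 to 5.61 in controls and 5.14 to 5.49 in mutants, and 1445360_at 4.84 to 5.18 and 4.98 to 5.05, all below the array medians. The groups overlapped on both, with log2 differences of −0.097 (95% confidence interval −0.36 to 0.17) and −0.030 (−0.20 to 0.14). No detection call was used here, so these values bound the measured signal and not the transcript.

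Tgfbr1, the floxed gene, was higher on the mutant arrays on all 3 of its probe sets. On the brightest, 1420895_at, controls 1 to 4 read 12.03, 12.12, 11.97 and 11.89 and mutants 1 to 4 read 12.42, 12.42, 12.37 and 12.36, a log2 change of 0.39 (SE 0.060, limma adjusted p = 0.00662). On 1420893_a_at controls read 5.58, 6.29, 6.09 and 6.03 and mutants 6.71, 6.74, 7.02 and 6.80, a change of 0.82 (SE 0.14, limma adjusted p = 0.0109) or 1.77-fold. The groups did not overlap on either, and only 0.956% of probe sets changed by more than 1420893_a_at. On 1420894_at controls read 5.71, 5.78, 6.04 and 5.51 and mutants 6.36, 6.34, 6.37 and 6.04, so mutant 4 met control 3, and the change of 0.52 (limma adjusted p = 0.0367) was no longer called after dropping any of 6 of the 8 arrays, that is all but those without control 3 or mutant 4 (0.43 to 0.61 over the 8). Without controls 1 and 3 together 1420895_at was 0.39 with an adjusted p of 0.0524. Both 1420893_a_at and 1420894_at read below the array median on some arrays, and the filter for dim probe sets removed them. On the bright 1420895_at the rise was 1.31-fold. Without variance moderation 1420893_a_at had an adjusted p of 0.0554 in the limma fit. The sources used here do not place the probes relative to the floxed segment, and cells outside the crest keep the gene, so these sets check neither the deletion nor the labels. Every direction reported rests on the labels.

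Tgfbr2, the type II receptor that binds ligand first, fell on its brightest probe set. For 1426397_at controls 1 to 4 read 11.16, 11.30, 11.23 and 11.22 and mutants 1 to 4 read 11.001, 10.76, 10.72 and 10.57. All mutants lay below all controls, with mutant 1 nearest to them. The log2 change was −0.47 (SE 0.087, limma adjusted p = 0.0160), or 1.38-fold lower, and −0.59 and −0.34 on the 2 sides of the within-group component. The call was lost without control 2 (−0.44, adjusted p = 0.0533), mutant 2 (−0.46, 0.0503) or mutant 3 (−0.45, 0.0516), and with controls 1 and 3 both left out (−0.50, 0.0772). Neither 1425444_a_at, at −0.087, nor the dim 1422019_at, at −0.073, was called, and the mean of the 3 probe sets changed by −0.21 (limma adjusted p = 0.0730 over genes).

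Tgfbr3, the betaglycan gene, rose on its brightest probe set. For 1433795_at controls 1 to 4 read 10.21, 10.24, 10.24 and 10.26, within an SD of 0.020, and mutants 1 to 4 read 10.69, 10.68, 10.51 and 10.48. The groups did not overlap and mutants 1 and 2 were the highest. The log2 change was 0.36 (SE 0.062, limma adjusted p = 0.0119), or 1.28-fold, and 0.27 and 0.44 on the 2 sides of the within-group component. It kept its call in all 8 fits with 1 array left out (0.32 to 0.39), but not without controls 1 and 3 together (0.34, adjusted p = 0.0816). The second probe set, 1425620_at, lay below the array medians on every array and differed by 0.034, and the mean of both changed by 0.19 (limma adjusted p = 0.0942 over genes).

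**Figure D3:**
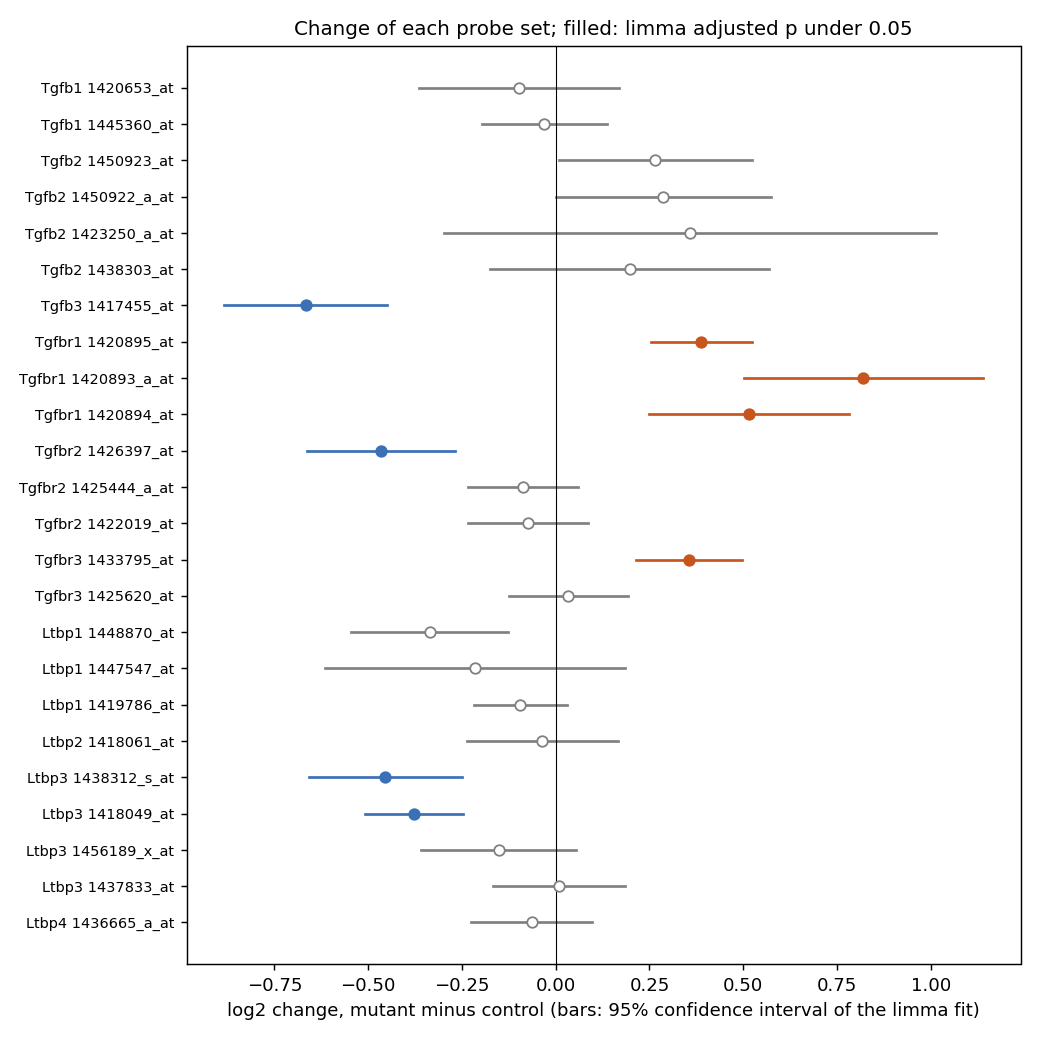
Log2 change of each of the 24 probe sets, mutant minus control, with 95% confidence intervals of the limma fit; filled points passed an adjusted p of 0.05 over all probe sets (orange, higher; blue, lower). All 3 Tgfbr1 sets lie to the right of 0, the 3 Ltbp intervals that exclude 0 lie left of it, and the Tgfb2 intervals lie mostly right of 0 without a call.

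Ltbp3, a matrix-anchored partner of the latent complex with a known part in skeletal and dental growth, fell on both of its bright probe sets. For 1438312_s_at controls 1 to 4 read 9.998, 10.22, 10.15 and 10.05 and mutants 1 to 4 read 9.79, 9.73, 9.41 and 9.67. For 1418049_at controls read 8.47, 8.49, 8.50 and 8.42 and mutants 8.14, 8.14, 7.96 and 8.13. The groups did not overlap on either set, and mutant 3 was the lowest on both. The log2 changes were −0.45 (SE 0.090, limma adjusted p = 0.0205) and −0.38 (SE 0.058, limma adjusted p = 0.00650). The second kept its call in all 8 fits with 1 array left out. The first, whose suffix marks probes that can match transcripts of other genes, lost it without control 2 (−0.42, adjusted p = 0.0634), control 3 (−0.44, 0.0549) or mutant 4 (−0.46, 0.0566). Both missed the threshold without controls 1 and 3 together (−0.48, adjusted p = 0.0822, and −0.36, 0.0584). The other 2 sets of Ltbp3, 1456189_x_at and 1437833_at, were below the array medians on every array and differed by −0.15 and 0.0083.

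Ltbp1, which covalently binds latent TGF-beta in most tissues, was not called. Its brightest set, 1448870_at, read 9.99, 9.83, 9.64 and 9.88 across control arrays 1 to 4, and 9.30, 9.55, 9.61 and 9.54 across mutant arrays 1 to 4. All mutants lay below all controls, with a gap of only a few hundredths between control 3 and mutant 3. The log2 difference was −0.34 (SE 0.093, 95% confidence interval −0.54 to −0.13, limma adjusted p = 0.0722). It passed without control 3 (−0.40, adjusted p = 0.0409), with dim probe sets left out of the fit (−0.34, 0.0431) and with 1 probe set a gene (0.0479). The values on the 2 sides of the within-group component were −0.34 and −0.33. The other 2 Ltbp1 sets differed by −0.22 and −0.094, and neither was called.

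Ltbp2, which does not bind latent TGF-beta and is known from elastic fibres, was below the array medians on every array (4.50 to 4.88 in controls and 4.55 to 4.78 in mutants). Its difference of −0.035 had a 95% confidence interval of −0.24 to 0.17. Ltbp4, a binding protein of Tgfb1 needed for elastic fibre assembly in the lung, read 7.12 to 7.36 in controls and 7.09 to 7.30 in mutants on 1436665_a_at. The groups overlapped, with a difference of −0.063 (95% confidence interval −0.22 to 0.098). As for Tgfb1, the values of the dim Ltbp2 set bound the measured signal and not the transcript.

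Whether the probe sets of a gene changed unequally was tested on the array-wise difference between its brightest set and each other set, in 1 limma fit over the 16752 such pairs of all genes. Of the 14 member pairs 1 was called, against 1.09% of all pairs. It was the Tgfbr3 pair, in which 1433795_at changed by 0.32 more than 1425620_at (SE 0.059, limma adjusted p = 0.0463), and it was not called after dropping any 1 of the 8 arrays (0.30 to 0.35). Since 1425620_at is dim on every array, with a difference of 0.034, this value largely restates the change of 0.36 on 1433795_at. Tgfbr2 1426397_at fell by 0.38 more than 1425444_a_at with an adjusted p of 0.0666 in that fit, and without mutant 1 the pair passed. Ltbp3 1438312_s_at differed from 1437833_at by −0.46 (limma adjusted p = 0.0517), and Tgfbr1 1420895_at from 1420893_a_at by −0.43 (0.253). By exact permutation of the 8 arrays (two-sided) 6 of the 14 pairs had p = 0.0286 unadjusted, the smallest that 4 against 4 samples can give. The permutation was run on the member pairs only, so no share over all pairs stands beside this count and nothing is drawn from it. The 8 member probe sets that lay below the array medians on every array had 0 calls and log2 differences between −0.15 and 0.034. Over all probe sets, dim or not, 5.94% were called, so 0 of 8 is no more than a count. The share among dim probe sets alone was not worked out. Which transcript ends the sets read is not given in the sources.

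The promoters of 3 of the called genes are shown for context, since these genes changed in both directions, Tgfbr1 upward and Tgfbr2 and Ltbp3 downward. RefSeq sequences (GRCm38.p6) matched 8 of the 10 members by symbol, and those printed are the 250 bases before a start site that is also the start of the annotated gene. Capitals mark the letters CAGAC, the core that Smad3 and Smad4 bind, and GGGCGG, the GC box, on either strand.
Tgfbr1 chr4:47352972-47353221 (+ strand): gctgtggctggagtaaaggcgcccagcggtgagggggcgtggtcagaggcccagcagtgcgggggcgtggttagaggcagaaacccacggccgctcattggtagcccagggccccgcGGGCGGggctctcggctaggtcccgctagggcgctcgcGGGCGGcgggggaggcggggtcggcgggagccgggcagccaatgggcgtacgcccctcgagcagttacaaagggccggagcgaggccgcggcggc
Tgfbr2 chr9:116175364-116175613 (- strand): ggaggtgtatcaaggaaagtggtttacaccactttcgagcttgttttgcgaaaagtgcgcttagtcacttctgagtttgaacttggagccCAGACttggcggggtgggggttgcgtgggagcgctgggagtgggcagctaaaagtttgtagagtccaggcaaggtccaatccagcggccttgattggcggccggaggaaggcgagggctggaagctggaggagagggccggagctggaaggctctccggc
Ltbp3 chr19:5740650-5740899 (+ strand): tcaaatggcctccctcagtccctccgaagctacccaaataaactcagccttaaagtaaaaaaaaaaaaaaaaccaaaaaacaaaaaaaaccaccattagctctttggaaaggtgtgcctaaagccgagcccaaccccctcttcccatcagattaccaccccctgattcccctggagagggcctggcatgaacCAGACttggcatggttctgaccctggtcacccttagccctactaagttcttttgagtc
The Tgfbr1 window held 0 copies of CAGAC and 2 of GGGCGG, had a GC content of 74.8%, and lies within the annotated span of a long non-coding RNA gene, Gm32435. The Tgfbr2 and Ltbp3 windows each held 1 CAGAC and 0 GGGCGG, with a GC content of 58.4% and 47.2%. A second Tgfbr1 window, at another start site and not printed, held 1 CAGAC and 0 GGGCGG. Among members with no call, the Tgfb2, Ltbp1 and Ltbp2 windows held 1 or 2 CAGAC, and those of Tgfb1 and Ltbp4 held 0. Over 32817 windows of the same length in RefSeq, at start sites whether or not these begin the annotated gene, 42.2% held CAGAC and 32.7% held GGGCGG. Neither match therefore sets a window apart. TATAAA, the TATA box, was in none of the 3 printed windows and in 12.4% of all. These letters describe the windows and say nothing of binding.

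The other genes of the pathway were counted by the brightest probe set of each gene, among which 3.06% of 18193 genes were called higher and 4.46% lower, with a median log2 change of −0.011. Of 20 measured genes of latent complex storage and activation 2 rose and 2 fell, with a median change of −0.087. Itgb3, the beta subunit of an integrin that can release TGF-beta from its latent complex, rose by 1.27 (SE 0.10, limma adjusted p = 0.000367), from 6.35 to 6.66 in controls to 7.50 to 7.91 in mutants. Thbs1, a matrix protein known to activate latent TGF-beta, rose by 0.52 but was no longer called after dropping any of 6 of the 8 arrays (0.45 to 0.62). Bgn, a proteoglycan that binds TGF-beta, fell by 0.82 on the log2 scale and Emilin1, which restrains processing of the TGF-beta precursor, by 0.42, and both kept their calls in all 8 such fits.

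Among 13 other receptors of the TGF-beta superfamily 3 rose and 0 fell, with a median change of 0.030. Bambi, a pseudoreceptor without a kinase domain, rose by 0.67 (SE 0.090, limma adjusted p = 0.00366), and the activin type II receptor genes Acvr2b and Acvr2a rose by 0.41 and 0.21. Bambi and Acvr2b kept their calls in all 8 fits with 1 array left out, and Acvr2a lost its call in all 8 (0.19 to 0.23). Amhr2, the receptor of anti-Muellerian hormone, differed by −0.19 and was not called. Of 23 Smads and their regulators 2 rose and 0 fell, with a median change of 0.024. The 2 were Dab2, an adaptor that binds TGF-beta receptors, at 0.34, and the corepressor gene Tgif1 at 0.24, each of which was no longer called after dropping any of 7 arrays. The corepressor gene Ski differed by −0.22 and Tgif2 by 0.18, and neither was called.

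TGF-beta response genes were measured for 17 of those listed, of which 8 fell and 1 rose, with a median change of −0.27. The smooth muscle gene Tagln fell by 0.88 on the log2 scale, the matrix gene Tnc by 0.71 and the collagen I genes Col1a1 and Col1a2 by 0.65 and 0.42. The transcriptional repressor gene Bhlhe40 fell by 0.54, the CDK inhibitor gene Cdkn1a by 0.50, and Pmepa1, a feedback inhibitor of the pathway, by 0.47 (SE 0.087, limma adjusted p = 0.0160). Acta2, smooth muscle actin, fell by 0.26 on a probe set whose suffix marks probes that can match related transcripts. Timp1, an inhibitor of matrix proteases, rose by 0.32 but was no longer called after dropping any of 4 of the 8 arrays. Of the 8 genes that fell, Cdkn1a and Col1a2 kept their calls in all 8 fits with 1 array left out, Tagln in 7 and Col1a1 in 6. Pmepa1 kept its call in only 4, Tnc in 3, and Bhlhe40 and Acta2 in 2. The number that fell was 2 without control 2, 5 without control 3, 4 without control 4, 5 without mutant 2, 4 without mutant 3, 5 without mutant 4, 3 with controls 1 and 3 both left out and 3 without variance moderation, with negative changes of all 8 genes in each fit. These lists were chosen with earlier results of these data known, and their counts are descriptions.

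**Figure D4:**
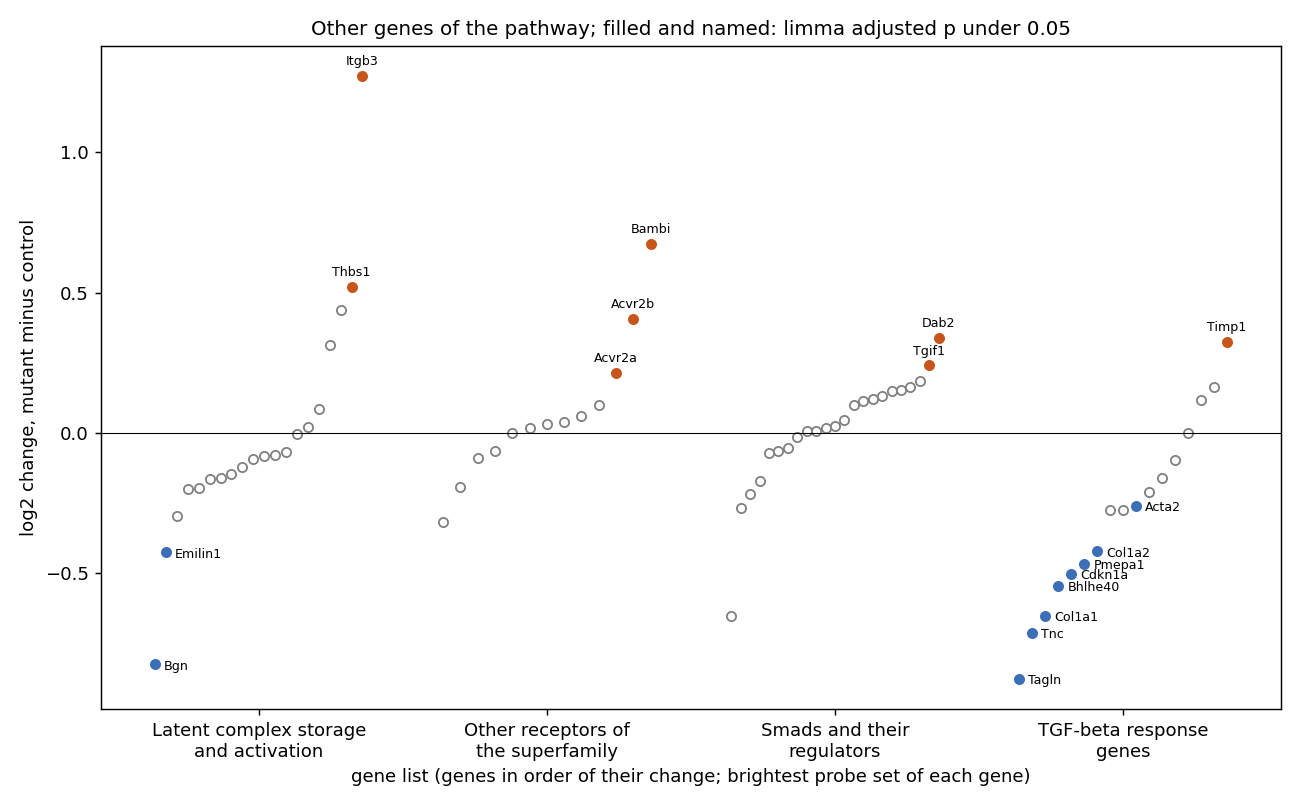
Log2 change, mutant minus control, of each measured gene in 4 lists of the TGF-beta pathway (brightest probe set of a gene; genes in order of their change), with called genes filled and named. Response genes lie mostly below 0, with 8 of 17 called lower, while the other 3 lists centre near 0 with Itgb3 the highest at 1.27.

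Markers of several cell types of the bud differed with the genotype, and their part in the changes of the TGF-beta genes was not tested. All 13 muscle, 12 epithelial, 10 endothelial, 13 macrophage and 5 Schwann cell markers measured reached the array median on at least 1 array, as did 10 of 12 of neural crest mesenchyme, so this level does not tell the tissue from its minor cell types. Dlx6 and Msx2 stayed below it on every array. For the counts called in these lists, the shares over all genes are again 3.06% higher and 4.46% lower, and a single call in a list of 6 or 12 genes is no more than a count. The mean log2 value of the muscle markers was 10.27 to 10.48 in controls and 9.68 to 9.93 in mutants. Of the 13, 8 were called lower, led by Chrng, Tnnt3 and Chrna1. Des (−0.36), Ckm (−0.45), Pax3 (−0.34), Pax7 (−0.20) and Myf5 (0.10) were not called. The neural crest mesenchyme list ran from 8.50 to 8.70 in controls and 8.75 to 8.96 in mutants, with Dlx2, Dlx1 and Prrx1 called higher and 9 of 12 not called. The median change of that list was 0.089, below the shift of 0.24 in its mean, and Dlx5 (−0.41), Msx1 (−0.23), Dlx6 (−0.070) and Msx2 (−0.031) had negative differences. Endothelial markers were at 7.997 to 8.10 in controls and 8.22 to 8.50 in mutants, with Cdh5, Pecam1 and Plvap of 10 called higher.

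Macrophage and leukocyte markers were at 7.58 to 7.72 in controls and 7.06 to 7.57 in mutants, with 4 of 13 called lower, among them Adgre1, Csf1r and Mrc1. Schwann cell and glial markers, at 8.04 to 8.37 and 7.67 to 7.999, had 3 of 5 called lower (S100b, Foxd3 and Sox10). Neuronal markers, at 7.65 to 7.85 and 7.44 to 7.53, had 4 of 9 called lower and 2 higher, with Tubb3 and Stmn2 lower and Nefl higher by the smallest p. Smooth muscle and pericyte markers had 2 of 7 called lower, Cspg4 and Acta2, with list means of 8.82 to 9.08 and 8.47 to 8.98. Cartilage had Col9a1 called higher of 6, with list means of 6.67 to 6.78 and 6.76 to 6.90, and Matn1, Acan and Comp below the array medians on every array. The median change of the cartilage list was −0.022, while Col9a1 changed by 0.995. Epithelium had Krt18 called lower of 12, with means of 10.21 to 10.45 and 9.93 to 10.42, and erythroid markers had 0 of 6 called in limma, 0 of them at an unadjusted p under 0.05, with means of 9.21 to 9.51 and 9.07 to 9.40. Mutant and control list means did not overlap for muscle, mesenchyme, endothelium, macrophages, neurons and Schwann cells. With 1 array left out, Chrng, Tnnt3, Chrna1, Dlx1, Dlx2, Cdh5, Tubb3, Stmn2, Nefl and Col9a1 kept their calls in all 8 fits. Pecam1 kept its call in 6 of the 8 fits, and Prrx1, Plvap and Cspg4 in 3. S100b, Sox10, Krt18 and Acta2 kept theirs in only 2, and Adgre1, Csf1r, Mrc1 and Foxd3 in only 1.

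**Figure D5:**
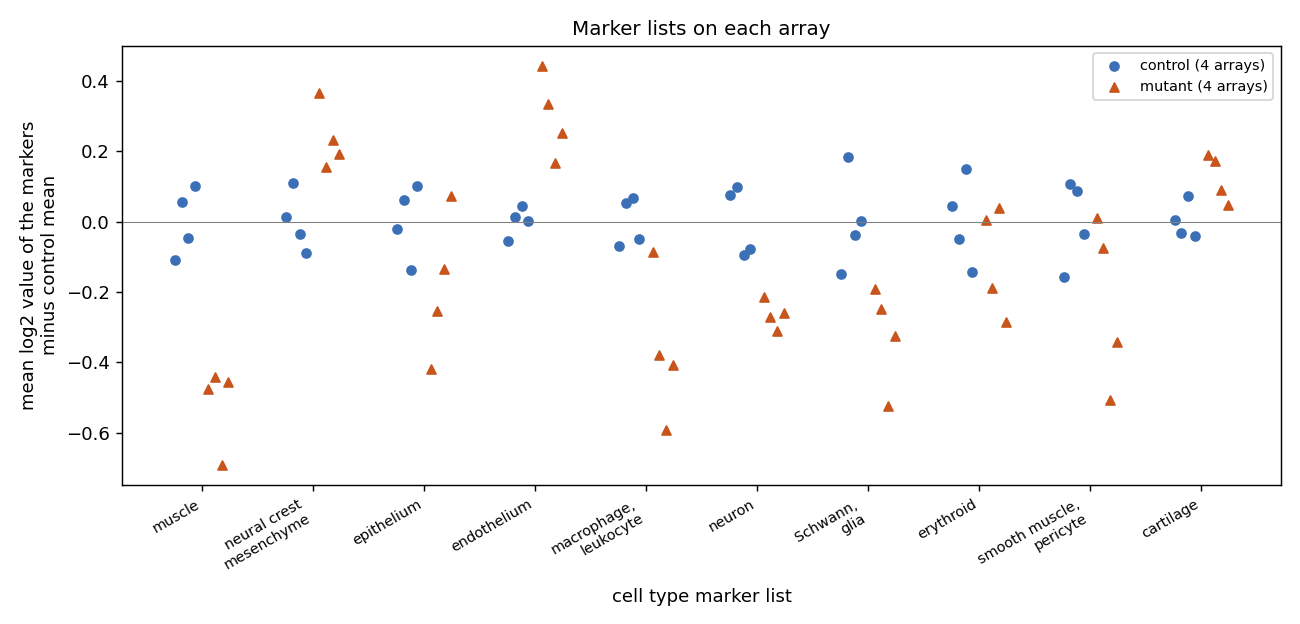
Mean log2 value of the markers of 10 cell types on each array, minus the mean of the 4 controls (circles, controls; triangles, mutants). Muscle, macrophage, neuron and Schwann cell means lie lower in all 4 mutants than in any control, and mesenchyme and endothelium means lie higher.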

How the data were processed

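Values are the log2 expression values per probe set deposited by the authors, 1 column for each of 8 samples, with RMA named in the submitters' processing notes. The sources used here give neither its version nor its settings. RMA aligns arrays and compresses changes of dim probe sets. Gene names came from the platform annotation. Of 45101, 34945 naming 1 gene were fitted, and 932 naming several genes, 9160 unnamed and 64 control sets were not used. All 10 member genes matched a RefSeq gene identifier (GRCm38.p6). Mutants were compared with controls by limma 3.58.1 in R 4.3.3 (lmFit, eBayes, two-sided, Benjamini-Hochberg over all 34945), with calls at an adjusted p of 0.05. SE is the moderated standard error. "Rose" and "fell" mean called. The script was tested on simulated data of the same size. The labels do not tie samples to litters, so p-values measure the spread between these samples, and the number of arrays limits the precision.

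Members and lists were chosen with earlier results of these data known. Named were all members, every called gene and the 4 smallest p of each pathway list. Of each marker list the called genes among the 3 smallest p were named. Also named were Matn1, Acan, Comp, Dlx6 and Msx2 for their low signal and Dlx5 and Msx1 for their negative differences. The muscle markers without a call were named as well. Some listed genes were not analysed here and are not reported. Same-numbered samples deviated from their group means in opposite directions (correlations of −0.58, −0.13, −0.34 and −0.38), and the main fit did not pair them. Whether a number stands for a shared litter or run was not tested. Alternatives covered normalization, filters, variance moderation, array weights, left-out arrays and the replicate number as a block.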

Additional observations from a re-analysis of the deposited data

Results flagged for a closer look

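Of 76 groups of 4 arrays examined, 24 probe sets and 14 list means in 2 groups each, 4 held an array apart from the other 3, and chance gives about 1 in 20. On Tgfbr1 1420894_at mutant 4 read 6.04 against 6.34 to 6.37 on the other mutants. On Tgfbr2 1425444_a_at mutant 4 read 6.12 against 6.32 to 6.34. On Ltbp3 1418049_at mutant 3 read 7.96 against 8.13 to 8.14. The mean of the muscle markers was 9.68 on mutant 3 against 9.90 to 9.93.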

How the results depend on the processing

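Over 452 values of the 24 member probe sets under other settings, 415 kept their direction and their side of the threshold, 25 lost a call, 4 gained one and 8 changed sign, and in each case the cause was not tested. With 1 array left out, 1194 to 1705 of all probe sets were called against 2076, 3 to 4 members were higher and 2 to 4 lower, and 0 to 1 probe set pairs were called. With the replicate block 697 probe sets were called in all and 1 member was lower (Tgfb3), with 4 higher set to 3 by the loss of Tgfbr3, and 1 of the 17 response genes was lower against 8. Without variance moderation 2 members were higher and 2 lower. Members higher were 2 with dim probe sets left out and 2 with 1 probe set a gene, where fewer members are tested (12 and 10). Without controls 1 and 3 together 1201 probe sets were called, 2 members were higher, 1 was lower and 0 pairs were called. Exact permutation, unadjusted and run on the member pairs alone, gave p = 0.0286 for 6 pairs, with no share over all pairs to set beside it. Sign changes were confined to uncalled differences, with these ranges when 1 array was left out. Tgfb1 1445360_at ran from −0.10 (without control 1) to 0.013 (control 3), Ltbp2 from −0.091 (control 4) to 0.037 (control 3), Tgfbr3 1425620_at from −0.013 (mutant 1) to 0.092 (mutant 4) and Ltbp3 1437833_at from −0.048 (mutant 1) to 0.068 (mutant 3). Of the pairs, Tgfb2 1450923_at minus 1423250_a_at ran from −0.33 (control 1) to 0.14 (control 4), Tgfb2 1450923_at minus 1450922_a_at from −0.045 (mutant 3) to 0.0057 (mutant 4) and Ltbp1 1448870_at minus 1447547_at from −0.23 (control 2) to 0.043 (control 4). Without controls 1 and 3 together Ltbp2 was 0.072, Ltbp3 1437833_at −0.0059 and Tgfb2 1450923_at minus 1438303_at −0.051. With the side of the within-group component as a block, an alternative chosen after seeing the data, Ltbp1 1448870_at passed (limma adjusted p = 0.0391).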
